A study of Mus musculus with 4 samples.

Results

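The 10 genes described here encode the chains of the CD3 complex (Cd3d, Cd3e, Cd3g and Cd247), the kinases and the adaptor that act directly below it (Lck, Zap70 and Lat) and 3 surface proteins of T cells (Cd2, Cd6 and Thy1). They were taken by gene symbol from a table of raw counts of 24411 genes, and all 10 were found. Messenger RNA had been sequenced from bone marrow cells of C57BL/6 mice, sorted by surface B220, CD43 and HSA (CD24) as pro-B cells, which are committed to the B lineage but lack a complete antigen receptor. The knockout genotype, called KO, was Tnpo3fl/fl mb1Cre (mice 51 and 63). Its control, called WT, was Tnpo3+/+ mb1Cre (mice 55 and 69). The mice of both genotypes thus carried mb1Cre, a Cre recombinase driven from the Cd79a (mb-1) locus in the B lineage, and the genotypes differed in whether Tnpo3, which encodes a nuclear import receptor of splicing factors, was floxed. The Cre acts in cells that express Cd79a, and the share of cells with a deleted Tnpo3 was not measured. Age is not given in the sources used here. Each library came from 1 mouse, so n = 2 per genotype.

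The T cell receptor cannot signal by itself. It is assembled with CD3 dimers, in which CD3-epsilon pairs with CD3-gamma or CD3-delta, and with a dimer of the zeta chain encoded by Cd247, and all of these chains carry tyrosine motifs (ITAMs) in their tails. The kinase LCK phosphorylates the motifs, ZAP-70 binds to them and phosphorylates the adaptor LAT, and B cells do the same work with CD79A, CD79B, SYK and BLNK. Natural killer (NK) cells use the zeta chain, LCK, ZAP-70 and LAT below their own receptors, and assembled surface CD3 is the textbook mark of T cells. Pro-B cells are not expected to display it.

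The genes Cd3g, Cd3d and Cd3e lie together on chromosome 9 of GRCm38. Cd3g (44969572 to 44980431, minus strand) and Cd3d (44981786 to 44987339, plus strand) are transcribed away from each other from starts 1355 bases apart, and Cd3e (44998740 to 45009627, minus strand) completes a cluster of 40056 bases. Cd247 lies alone on chromosome 1 (165788681 to 165877277, plus strand). As described further on, the clustered genes and Cd247 differed in how they varied between the knockout mice. The 250 bases before the start of each gene are shown, but whether these sequences bear on that difference was not tested. The windows are RefSeq promoters of GRCm38.p6, written 5′ to 3′. Capitals mark matches, on either strand, to the E-box letters CANNTG, the Runx letters TGTGGT, the Ets letters GGAAGT, the Tcf/Lef letters CTTTGA and the Gata letters AGATAA.
Cd3g (chr9:44980432-44980681, minus strand): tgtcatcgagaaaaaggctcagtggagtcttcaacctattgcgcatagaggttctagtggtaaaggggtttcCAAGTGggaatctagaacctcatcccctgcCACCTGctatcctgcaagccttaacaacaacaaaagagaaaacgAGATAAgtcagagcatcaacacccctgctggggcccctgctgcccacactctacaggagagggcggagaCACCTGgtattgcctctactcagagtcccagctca
Cd3d (chr9:44981536-44981785, plus strand): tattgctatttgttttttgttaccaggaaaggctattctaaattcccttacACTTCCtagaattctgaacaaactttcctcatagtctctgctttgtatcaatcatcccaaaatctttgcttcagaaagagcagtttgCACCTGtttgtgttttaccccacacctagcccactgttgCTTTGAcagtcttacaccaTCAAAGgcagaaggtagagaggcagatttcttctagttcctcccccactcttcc
Cd3e (chr9:45009612-45009861, minus strand): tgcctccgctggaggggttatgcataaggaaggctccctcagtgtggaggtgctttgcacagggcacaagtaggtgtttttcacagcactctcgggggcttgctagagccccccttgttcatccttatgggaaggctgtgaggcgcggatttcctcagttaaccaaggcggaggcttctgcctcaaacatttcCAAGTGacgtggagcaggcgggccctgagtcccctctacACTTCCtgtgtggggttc
Cd247 (chr1:165788431-165788680, plus strand): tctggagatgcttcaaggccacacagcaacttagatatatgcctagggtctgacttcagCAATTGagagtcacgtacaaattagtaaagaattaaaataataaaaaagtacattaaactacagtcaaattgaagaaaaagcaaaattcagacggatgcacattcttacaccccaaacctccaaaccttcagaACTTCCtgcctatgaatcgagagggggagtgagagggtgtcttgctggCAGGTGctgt

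Each of these 4 windows held at least 1 E-box, as did 66.2% of 32851 RefSeq promoters searched over the same 250 bases. Cd3g held 3 E-boxes and 1 Gata match. Cd3d held 1 E-box, 1 Ets match and 2 Tcf/Lef matches, at 73 to 68 and 54 to 49 bases before the start. Cd3e and Cd247 had 1 Ets match each, with 1 and 2 E-boxes. No Runx match was present in the 4. Of all promoters, 14% held the Runx, 19.7% the Ets, 13.8% the Tcf/Lef and 9.99% the Gata letters. No matches overlapped each other. A promoter was matched for 7 of the 10 genes, with 2 start sites for Lck and 3 for Zap70, and gene counts do not separate transcripts from different starts. Cd2, Cd6 and Thy1 had no match in the table.

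The libraries held 40647384 and 30440627 counts in KO mice 51 and 63, and 32697489 and 26211372 in WT mice 55 and 69, so that 3 counts corresponded to 0.0743 to 0.113 CPM, the unit in which counts of every library are scaled to the same total, here with TMM factors. Tnpo3 was at 79.7 and 68.8 CPM in the KO libraries, against 159 and 148 CPM in the WT libraries, with a log2 fold change of -1.05 ± 0.14 (SE) and an adjusted p of 0.0108 (0.0603 without KO mouse 63). All 12 pro-B markers checked were detected in every library, with a summed level of 3508 and 2761 CPM in KO and 9108 and 11078 CPM in WT. In the test given below, 9 of the 12 were called lower in KO and 0 higher, with a median log2 fold change of -1.86. Of all genes tested, 10.9% were called lower and 11.3% higher. Xist and the Y-linked gene Ddx3y showed KO mouse 51 and WT mouse 69 to be male and KO mouse 63 and WT mouse 55 female. In edgeR's quasi-likelihood test over 13507 genes, 1524 were higher and 1468 lower in KO at an adjusted p under 0.05. These 2992 calls were 22.2% of the genes tested, and the number of calls was 1616 without KO mouse 51 and 1277 without KO mouse 63.

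Of the 10 genes, 4 rose in KO (Cd3g, Cd247, Cd6 and Thy1), 0 fell and 6 were not called. Among all genes tested, 11.3% were called higher and 10.9% lower. The median log2 fold change was 3.11 over the 10 genes and -0.02 over all genes tested. Without KO mouse 51 it was 1.48 over the 10 genes and -0.03 over all genes, and with each other library left out it was between 2.89 and 3.42 over the 10 genes. Both KO libraries lay above both WT libraries for 8 of the 10 genes, against 33% of all genes, and below them for Cd2, against 34.6%. Zap70 overlapped between genotypes. The number called was 7 without KO mouse 63, when Cd3d, Cd3e and Lck were added and 5.33% of all genes were called higher and 3.78% lower. It was also 7 without WT mouse 69, when Lck and Lat were called higher and Cd2 lower, with 11.7% of all genes called higher and 11.2% lower. It was 3 without KO mouse 51 (all genes: 6.49% higher, 5.11% lower) and 3 without WT mouse 55 (10.6% higher, 9.22% lower). Other settings called between 3 and 8 of the 10. DESeq2 size factors in edgeR called 5, all higher (all genes: 11.5% higher, 10.5% lower), and unscaled totals called 4 (10.9%, 11.4%). Testing every gene with no filter called 7 higher and 1 lower (10.8%, 9.16%), and the stricter filter called 4 higher (12%, 10.5%). DESeq2 called 7 higher (13.9%, 12.8%), limma-voom 4 (11.4%, 11.3%) and a false discovery rate of 0.1 called 7 (16.5%, 16.5%). Against a fold of 1.5, 3 passed (6.01%, 4.78%). With the sex of the mouse as a covariate, 7 were called higher (15.8%, 16.2%), which added Cd3e, Lck and Zap70. That fit was added once the values were known and has 1 residual degree of freedom. Cd247, Cd6 and Thy1 were called in each of these settings.

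All 10 genes passed the low-count filter, but Cd3e did so through the KO libraries, since neither WT library reached the filter's minimum.

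**Figure D1:**
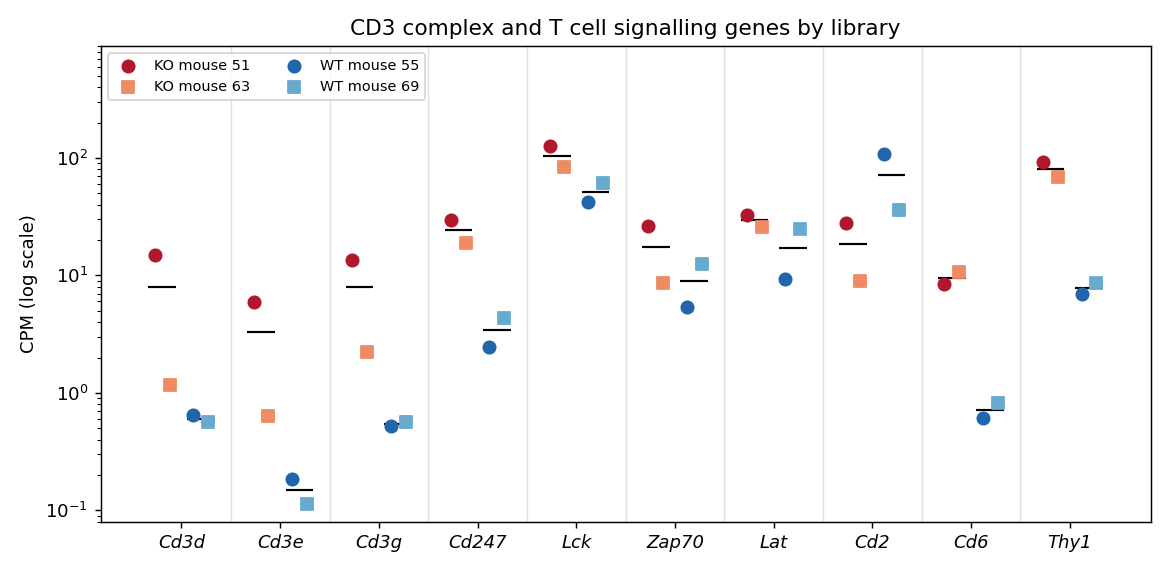
Level of each of the 10 genes in CPM (log axis) in the libraries of KO mice 51 and 63 and WT mice 55 and 69, with short lines at the genotype means. Cd6 and Thy1 form separate KO and WT pairs, the 3 clustered Cd3 genes are high in KO mouse 51 and much lower in KO mouse 63, and Cd2 is highest in WT mouse 55.

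The CD3 chain genes of the chromosome 9 cluster were close to the detection limit in WT cells and stood out in 1 of the KO libraries. Cd3d, the delta chain, had 600 and 35 counts in KO mice 51 and 63, against 21 and 15 in WT mice 55 and 69. In CPM this was 14.9 and 1.16 in KO and 0.642 and 0.564 in WT. Both KO libraries were above both WT libraries, but the KO mice differed far more from each other than KO mouse 63 differed from WT. The log2 fold change of 3.73 ± 1.2 (SE) did not pass (adjusted p of 0.0808), and without KO mouse 51 it was 0.94 (0.461).

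Cd3e encodes the epsilon chain, which every CD3 dimer contains. It had 242 and 19 counts in the KO libraries, against 6 and 3 in the WT libraries, or 5.99 and 0.631 CPM in KO and 0.183 and 0.113 CPM in WT. It was the scarcest of the 10 genes in WT cells, and KO mouse 51 again stood apart. The log2 fold change was 4.44 ± 1.24, with an adjusted p of 0.0567, and 2.04 without KO mouse 51 (adjusted p of 0.234). With sex as a covariate the adjusted p was 0.0399. Cd3g, the gamma chain, had 550 and 67 counts in KO, against 17 and 15 in WT. Its CPM were 13.6 and 2.22 in KO and 0.520 and 0.564 in WT. Cd3g rose by 3.87 ± 0.94 on the log2 scale, with an adjusted p of 0.0401, and so was the called member of the cluster. The call was lost without KO mouse 51 (log2 fold change of 2.03, adjusted p of 0.106), without WT mouse 55 (0.0561), with limma-voom (0.117) and against a fold threshold of 1.5 (0.0655).

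Of the 3 pairs of clustered chain genes, 1 differed in proportion between the KO libraries. The count ratio of Cd3g to Cd3d was 0.917 in KO mouse 51 (exact 95% interval 0.815 to 1.03) and 1.91 in KO mouse 63 (1.25 to 2.97), against 0.810 (0.401 to 1.61) and 1 (0.455 to 2.20) in WT mice 55 and 69. The intervals of the KO libraries did not overlap, while both WT intervals spanned the value of KO mouse 51 and that of WT mouse 69 also spanned the value of KO mouse 63. For Cd3d to Cd3e the ratio was 2.48 (2.13 to 2.89) in KO mouse 51 and 1.84 (1.03 to 3.41) in KO mouse 63, which overlapped. For Cd3g to Cd3e it was 2.27 (1.95 to 2.65) in KO mouse 51 and 3.53 (2.09 to 6.22) in KO mouse 63, which also overlapped. These intervals cover counting error only.

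Cd247, which encodes the zeta chain used by the T cell receptor and by NK and Fc receptors, was higher in both KO mice. It had 1203 and 570 counts in KO, against 81 and 116 in WT, or 29.8 and 18.9 CPM in KO and 2.48 and 4.36 CPM in WT. The genotypes were well apart, and the KO libraries were within a factor of 1.58 of each other. Cd247 rose by 2.84 ± 0.40 on the log2 scale, with an adjusted p of 0.0119, and was called in all 13 alternatives, with log2 fold changes from 2.47 to 3.298. In the GENCODE M21 annotation 56.4% of its exonic bases are also exonic in Pou2f1 on the opposite strand, and the strand setting of the counting is not given in the sources used here. Pou2f1, the gene of an octamer-binding factor, moved the other way, with 49.8 and 43.6 CPM in KO and 80.2 and 95.7 CPM in WT (log2 fold change of -0.91 ± 0.16, adjusted p of 0.0189). Set against Cd3e, the number of Cd247 counts per Cd3e count was 4.97 (4.33 to 5.73) in KO mouse 51 and 30 (19.0 to 50.2) in KO mouse 63, against 13.5 (5.94 to 37.9) and 38.7 (12.9 to 190.2) in WT mice 55 and 69.

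**Figure D2:**
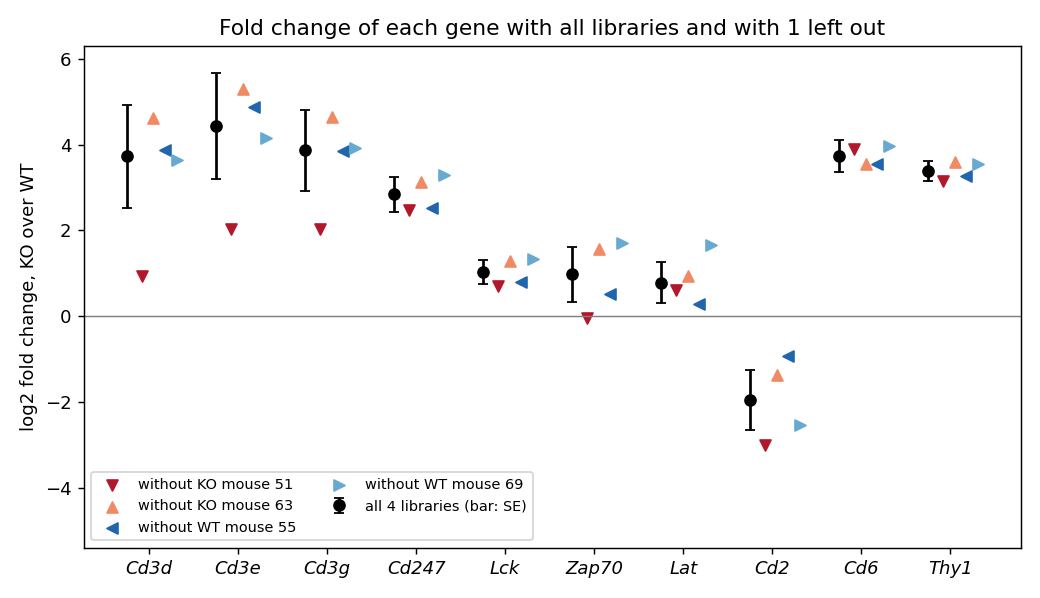
Log2 fold change, KO over WT, of each gene with all 4 libraries (black, bar: SE) and with each library left out (coloured triangles). Leaving out KO mouse 51 lowers Cd3d to 0.94, Cd3e to 2.04 and Cd3g to 2.03, while Cd6 stays between 3.56 and 3.96 and Thy1 between 3.15 and 3.58.

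Of the kinases, Lck, the Src family kinase that phosphorylates CD3 motifs, was already well expressed in WT cells. It had 126 and 83.7 CPM in KO, against 41.8 and 61.5 CPM in WT. Each KO library was above each WT library, and the fold change of 1.02 ± 0.28 on the log2 scale, with an adjusted p of 0.0527, lay just beyond the threshold. It passed 0.05 in 7 of 13 alternatives, which were no filter, sex as a covariate (0.00282), DESeq2 (0.00632), limma-voom (0.0473), DESeq2 size factors in edgeR (0.0490), KO mouse 63 left out (0.0492) and WT mouse 69 left out (0.0113). Leaving out KO mouse 51 gave a log2 fold change of 0.70 (0.197). Zap70, the kinase that binds phosphorylated CD3 motifs, had 26.5 and 8.66 CPM in KO, against 5.41 and 12.6 CPM in WT. KO mouse 51 was the highest, and KO mouse 63 lay between the WT mice. The log2 fold change was 0.97 ± 0.64 (adjusted p of 0.318), and -0.05 without KO mouse 51 (0.966). With sex as a covariate it was 0.88 and passed (0.0399).

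Lat encodes the membrane adaptor that ZAP-70 phosphorylates. Its levels were 32.97 and 25.98 CPM in KO and 9.32 and 24.99 CPM in WT. The KO libraries were above both WT libraries, but KO mouse 63 was close to WT mouse 69, and the WT mice differed from each other more than the KO mice did. The log2 fold change of 0.78 ± 0.47 was not called (adjusted p of 0.279), and it was 1.66 without WT mouse 69 (0.00688) and 0.27 without WT mouse 55 (0.508).

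Among the surface genes, Thy1 and Cd6 were far apart between the genotypes and close within them. Thy1, a GPI-anchored surface protein of mouse T cells that is also found on some progenitors and innate lymphocytes, had 3768 and 2084 counts in KO, against 229 and 229 in WT. In CPM it was at 93.3 and 69.2 in KO and 7.0 and 8.61 in WT, without overlap. Thy1 rose by 3.38 ± 0.24 on the log2 scale (adjusted p of 0.00463). Cd6, a scavenger-receptor family protein that binds ALCAM and tunes T cell receptor signals, had 341 and 322 counts in KO, against 20 and 22 in WT. This was 8.45 and 10.7 CPM in KO and 0.611 and 0.827 CPM in WT, again without overlap. It rose by 3.73 ± 0.38 (adjusted p of 0.00654). Cd6 and Thy1 were called in all 13 alternatives.

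Cd2 ran opposite to the other genes. It encodes an adhesion receptor that binds CD48 in mice and is found on mouse T, NK and B cells. Its counts were 1130 and 272 in KO, against 3537 and 959 in WT, or 28.0 and 9.03 CPM in KO and 108 and 36.04 CPM in WT. Both KO libraries were lower than both WT libraries, yet within each genotype the mice differed 3-fold. The ratio of KO mouse 51 to KO mouse 63 was 3.10 (2.71 to 3.55), and that of WT mouse 55 to WT mouse 69 was 3.0 (2.79 to 3.23). The log2 fold change of -1.96 ± 0.71 did not pass (adjusted p of 0.107). It was -2.54 without WT mouse 69 (0.0110), -0.92 without WT mouse 55 (0.292), -3.00 without KO mouse 51 (0.0508) and -1.36 without KO mouse 63 (0.246), and without a low-count filter it passed (0.0427).

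Per kilobase of exon, which allows genes to be compared, the levels ran over more than an order of magnitude. In KO cells the mean level was highest for Lck (35.8 CPM per kilobase), followed by Thy1 (27.1), Lat (10.7), Cd2 (10.6), Zap70 (5.87), Cd247 (4.57), Cd3d (4.41), Cd3g (2.42), Cd6 (1.201) and Cd3e (0.812). Of these neighbours, Lck was above Thy1, Thy1 above Lat and Cd2 above Zap70 within each KO library. The order of the other pairs changed between the KO libraries. In WT cells the order was Cd2 (41.4), Lck (17.6), Lat (6.20), Zap70 (3.002), Thy1 (2.61), Cd247 (0.641), Cd3d (0.332), Cd3g (0.166), Cd6 (0.0902) and Cd3e (0.0363). There the order of Cd2 and Lck, and that of Zap70 and Thy1, changed between the WT libraries. The other neighbours kept their order in both. Cd3e, without which no CD3 dimer forms, was last by the mean of either genotype, but in KO mouse 51 it was at 1.47 and Cd6 was last at 1.06. In KO mouse 63, Cd3d (0.640), Cd3g (0.680) and Cd3e (0.155) were the lowest of the 10, and Cd6 was at 1.34. Lengths are from GENCODE M21, which may differ from the annotation the authors used, and the level of Cd247 carries the overlap with Pou2f1.

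The difference between the KO mice divided the genes. The ratio of KO mouse 51 to KO mouse 63 was 12.8 for Cd3d (exact 95% interval 9.10 to 18.5), 9.51 for Cd3e (5.96 to 16.1) and 6.13 for Cd3g (4.75 to 8.02). It was 3.10 for Cd2 and 3.06 for Zap70 (2.67 to 3.51). The ratio was smaller in the other genes, with 1.58 for Cd247 (1.42 to 1.74), 1.51 for Lck (1.44 to 1.58), 1.35 for Thy1 (1.28 to 1.42), 1.27 for Lat (1.16 to 1.39) and 0.790 for Cd6 (0.677 to 0.923). Each of these intervals excluded 1, but they cover counting error only and not the spread among mice of a genotype. On the log2 scale 5 of the 10 genes exceeded 1, against 6.23% of all genes tested. The profiles over the 4 libraries also kept the clustered Cd3 genes together, but they did not repeat this division in the other genes. By Euclidean distance of centred log2 CPM, Cd3e and Cd3g were each other's nearest member (0.580), Cd3e was nearest to Cd3d (0.743), Cd6 and Thy1 were nearest each other (0.611), Thy1 was nearest to Cd247 (0.660), and Lck and Lat were nearest each other (0.639). Cd2 and Zap70, alike in their ratio between the KO mice, were not each other's nearest member. Lck was nearest to Zap70 (0.864), and Cd2 was far from all, at 3.43 from Lck.

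**Figure D3:**
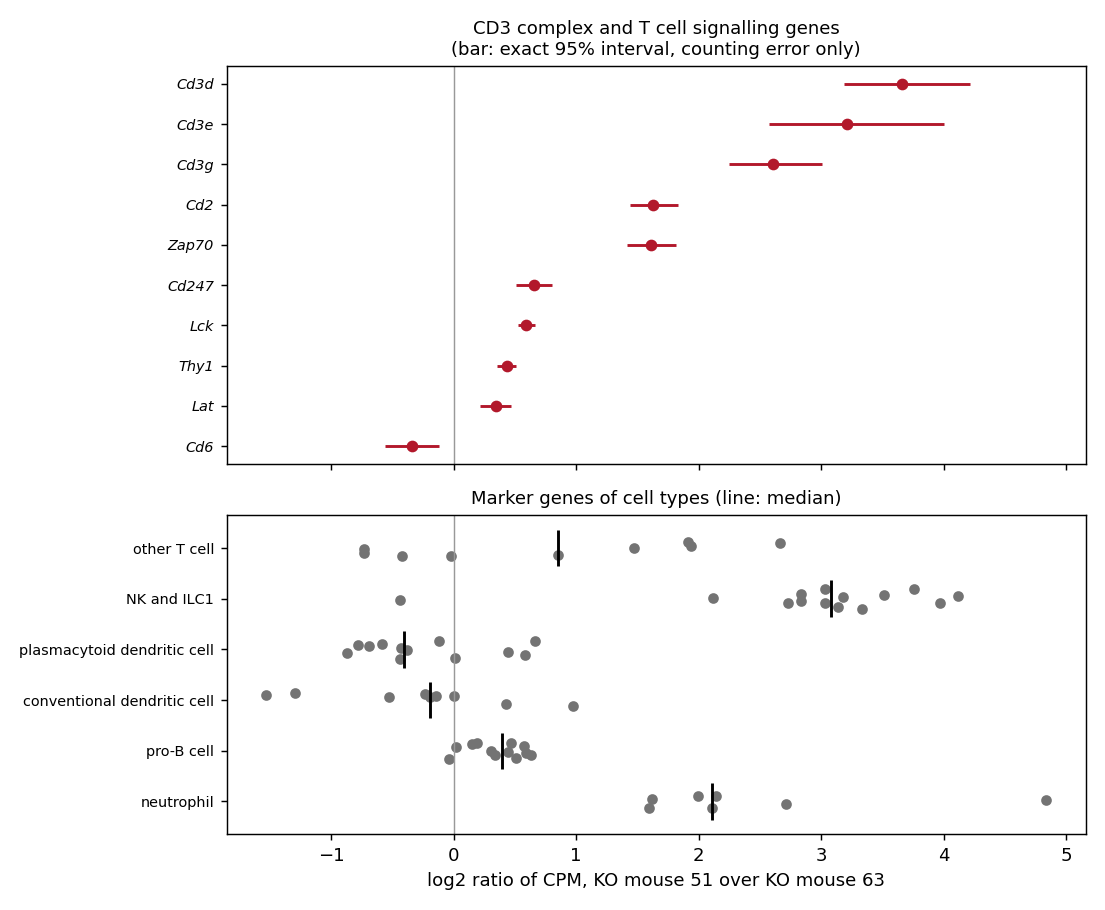
Log2 ratio of CPM in KO mouse 51 over KO mouse 63 for the 10 genes (top, bar: exact 95% interval from counting error) and for marker genes of cell types (bottom, line: median). The 3 clustered Cd3 genes sit between 2.61 and 3.66, Cd6 sits at -0.34, and the NK and ILC1 markers have a median of 3.08.

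Some marker lists of other cell types differed between the KO mice in the same direction as the clustered Cd3 genes, and others did not. The 14 NK and ILC1 markers had a summed level of 1346 CPM in KO mouse 51 and 293 CPM in KO mouse 63. In WT mice 55 and 69 it was 53.6 and 46.4 CPM, with none of the markers at 0 in any library. Of the 14, 9 were called higher and 0 lower, against 11.3% and 10.9% of all genes. Their log2 ratio of KO mouse 51 to KO mouse 63 ranged from -0.44 to 4.12 with a median of 3.08, and it exceeded 1 in 13 of 14. Ncr1, an NK receptor that signals through the zeta chain, had 63.4 and 7.20 CPM in KO and 1.1 and 0.752 CPM in WT. The 7 neutrophil markers also differed between the KO mice, with sums of 199.9 and 49.6 CPM in KO and 4574 and 3570 CPM in WT. All 7 were called lower. Their log2 ratio between the KO mice had a median of 2.11 and exceeded 1 in all 7. The 12 plasmacytoid dendritic cell markers summed to 10149 and 13149 CPM in KO, against 3023 and 1423 CPM in WT. Of these 12, 11 were called higher and 0 lower. The median log2 ratio of the 12 between the KO mice was -0.40, and none exceeded 1 in size. The 9 conventional dendritic cell markers summed to 1589 and 1891 CPM in KO and 630.0 and 338.5 CPM in WT. Of these 9, 6 were called higher and 0 lower, and the median log2 ratio between the KO mice was -0.20. The 6 erythroid markers summed to 1.02 and 2.42 CPM in KO and 46.1 and 37.1 CPM in WT, with Hba-a1 and Hbb-bs at 0 in every library. The 4 erythroid markers tested were all called lower.

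Most T cell markers outside the 10 genes were higher in KO. Of 10 listed, 9 were tested, 3 rose (Cd28, Cd8b1 and Ptcra) and 1 fell (Lef1). The shares called over all genes were 11.3% higher and 10.9% lower. Both KO libraries were above both WT libraries for 8 of the 9 (33% of all genes) and below for 1 (34.6%). The median log2 fold change was 2.98. Of the 9, Ptcra, Bcl11b and Trat1 were under the filter's minimum of 0.317 CPM in both WT libraries. These genes could be tested only through KO, which favours a rise in the count of 8 and in the median. Ptcra, the pre-T cell receptor alpha chain gene, had 46 and 57 counts in KO against 0 and 3 in WT, so it passed the low-count filter through KO, and its call was lost without KO mouse 63. The 10 listed markers summed to 248 and 124 CPM in KO, against 168 and 398 CPM in WT. Without Lef1 the sums were 180 and 86.7 CPM in KO and 18.6 and 23.9 CPM in WT. Lef1, which pro-B cells also express, had 67.4 and 37.3 CPM in KO and 149 and 374 CPM in WT. Bcl11b, a factor that fixes T cell identity, was at 1.96 and 0.498 CPM in KO and 0.122 and 0.188 CPM in WT and was not called (log2 fold change of 2.98 ± 0.89, adjusted p of 0.0674). T cell receptor constant region genes were not analysed here. The part of NK, dendritic or T cells in the levels of the 10 genes was not tested, and in bulk libraries more cells of a type cannot be told apart from more RNA per cell. KO mouse 51 was also the male of the KO mice, so sex and mouse cannot be told apart within that genotype.

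The wider T cell receptor pathway moved unevenly. Of 42 other genes of the pathway, 41 were tested, 13 rose, 1 fell and 27 were not called, where 11.3% of all genes were called higher and 10.9% lower, with a median log2 fold change of 0.54, against -0.02 over all genes. Those with the lowest adjusted p were Fyn, the kinase closest to Lck in T cells (2.32 ± 0.15), the adaptor Sla2 (3.90 ± 0.39), the co-receptor genes Cd8a (4.84 ± 0.49) and Cd4 (4.89 ± 0.70), which dendritic cell subsets also express, the transcription factor gene Nfatc2 (2.27 ± 0.25) and, falling, the diacylglycerol kinase gene Dgka (-1.88 ± 0.15). The most abundant genes not called were Ptpn6, Csk, Dgkz and Vav1, with log2 fold changes of 0.49, -0.47, -0.24 and -0.07. Ptcra, which was among the genes that rose, Trat1 and Cd226 were under the low-count filter's minimum in both WT libraries. These genes entered the test only through KO, which favours a rise in them. Lcp2, the partner of LAT, had 38.3 and 8.10 CPM in KO and 22.4 and 27.4 CPM in WT, so that KO mouse 51 was above and KO mouse 63 below both WT mice.

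Of 11 ligands and relatives of CD2, CD6 and THY1 that were tested, 4 rose and 3 fell, with the same shares over all genes. Cd48, the ligand gene of Cd2, rose by 0.68 ± 0.12 on the log2 scale, and Alcam, the ligand gene of Cd6, by 2.68 ± 0.52, but Cd48 was not called without KO mouse 51 (adjusted p of 0.114) or without KO mouse 63 (0.0960), nor Alcam without KO mouse 63 (0.0524). Cd5, the close relative of Cd6, had 6.19 and 6.27 CPM in KO and 3.42 and 5.64 CPM in WT and was not called (0.46 ± 0.36, adjusted p of 0.394). Fcer1g, whose product can pair with or replace the zeta chain, rose by 2.84 ± 0.29. Tyrobp (DAP12) and Hcst (DAP10), adaptors of other receptors of NK and myeloid cells, rose by 3.34 ± 0.45 and by 1.65 ± 0.40, but Hcst was not called without KO mouse 51 (1.16, adjusted p of 0.161) or without WT mouse 55 (0.0672). Fcgr3, whose receptor signals through the Fcer1g chain, had 6.02 and 0.465 CPM in KO and 13.9 and 12.4 CPM in WT and was not called.

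B cells use relatives of these genes, and most of those fell. Of 16 genes of B cell antigen receptor signalling, 1 rose and 10 fell (all genes: 11.3% higher, 10.9% lower), with a median log2 fold change of -1.16. Without KO mouse 51 the number called was 4, and without KO mouse 63 it was 7. Cd79a and Cd79b, the ITAM-bearing counterparts of the CD3 chains, changed by -1.81 ± 0.15 and -2.54 ± 0.24 on the log2 scale. Syk, the relative of Zap70, had 527 and 572 CPM in KO, against 1927 and 1197 CPM in WT (-1.51 ± 0.28, adjusted p of 0.0204), and Blnk, which does in B cells what Lcp2 does in T cells, fell by 0.90 ± 0.17. Lat2, the relative of Lat, was the exception and rose by 1.67 ± 0.40. Syk, Blnk and Lat2 were not called without KO mouse 51 or without KO mouse 63.

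The balance between T and B cell partners can be read within each library as a ratio of counts, whose size also depends on gene length. Zap70 counts came to 5.02% and 1.51% of Syk counts in KO mice 51 and 63, against 0.281% and 1.05% in WT mice 55 and 69. The genotypes did not overlap in this ratio. Zap70 alone overlapped and was not called, while Syk was lower in both KO libraries than in both WT libraries. The ratio of Lck to Blk, a Src family kinase of B cells, was 1.37 and 0.568 in KO, against 0.111 and 0.278 in WT. The ratio of Lat to Lat2 was 0.282 and 0.170 in KO and 0.159 and 0.965 in WT, with KO values inside the WT range. Among Src family kinases, Fyn, Fgr (3.34 ± 0.44) and Src (2.22 ± 0.30) rose and Blk fell (-1.32 ± 0.34, adjusted p of 0.0465), while Lck, Lyn and Yes1 were not called. Blk was called in 8 of 13 alternatives. With all 4 libraries the call was lost with DESeq2 size factors in edgeR (adjusted p of 0.0504) and with the stricter filter (0.0546). It was also lost against a fold threshold of 1.5, again with all 4 libraries, and without KO mouse 51 and without WT mouse 55. The log2 fold change with a library left out ranged from -1.70 to -0.85.

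**Figure D4:**
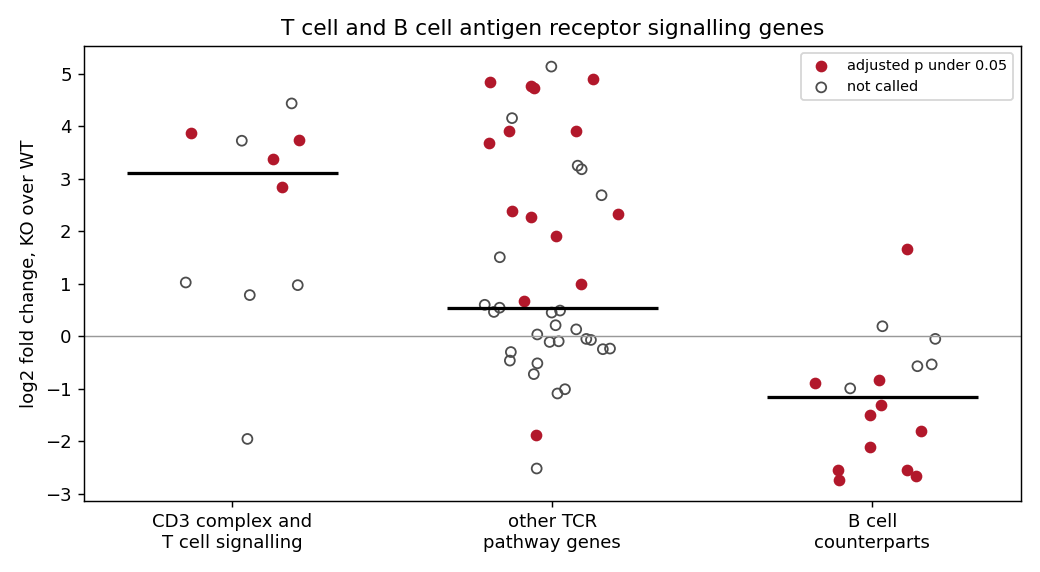
Log2 fold change, KO over WT, of the 10 genes (left), of 41 other T cell receptor pathway genes (middle) and of 16 B cell counterparts (right). Filled points have an adjusted p under 0.05 in edgeR and lines are medians, at 3.11, 0.54 and -1.16.

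Across all genes with a mean log2 CPM of at least 1, the 8 whose profile over the 4 libraries was nearest to the mean profile of the 10 genes were Dok2, Ccl3, AW011738, Myo6, Dnah17, Kifc3, Galnt6 and Igtp, at Euclidean distances from 0.390 to 0.516. Dok2, an adaptor of lymphocyte and myeloid signalling, had 42.7 and 20.2 CPM in KO, against 5.29 and 8.16 CPM in WT, and rose by 2.23 on the log2 scale (adjusted p of 0.0242). Ccl3, a chemokine gene, had 37.1 and 17.6 CPM in KO, against 4.52 and 6.69 CPM in WT, and rose by 2.29 (0.0221). With 4 libraries such likeness is a description.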

How the data were processed

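Raw gene counts deposited by the authors were used. Per the submitters' processing notes, the tools named are STAR 2.7.4a, featureCounts with Subread 2.0.0, SAMtools 1.10 and DESeq2, and the builds GRCm38 and mm10. The sources used here do not give the annotation, the strand setting or the handling of multiply aligned reads. Per the labels' protocols, libraries were made with a low-input kit. No molecular identifiers are described. A second deposited table, of scaled values, was not used here.

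Counts were tested in R 4.3.3 with edgeR 4.0.16 (filterByExpr with minimum count 10 and minimum total 15, TMM, glmQLFit, glmQLFTest, no covariates, all 4 libraries). P-values were adjusted by Benjamini-Hochberg over 13507 genes, with a threshold of 0.05. SE is the log2 fold change over the square root of F. The biological coefficient of variation was 0.251. No library repeated another: the chi-square per degree of freedom between counts was 61.0 within KO and 84.5 within WT. Library ratios have exact 95% binomial intervals. Log2 ratios between KO mice had 0.5 added to each count, and distances used log2 CPM with a prior count of 2.

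The 10 genes, the lists and the alternatives were chosen with earlier results of these data known. Named genes were all 10, up to 6 called genes with the lowest adjusted p and up to 4 abundant uncalled genes per list, Src family kinases and adaptor partners of the zeta chain and of NK and Fc receptors, Syk, Blnk and Lat2, and the 8 most alike genes. Of these, those a result turns on are given, and some genes are not reported here. Lcp2, Pou2f1, Cd28, Cd8b1, Ptcra, Lef1 and Bcl11b were added after their values were seen. Alternatives were each library left out, limma-voom (limma 3.58.1), DESeq2 1.42.0, a fold of 1.5 as the null, calls at 0.1, a stricter filter (at least 1 CPM in 2 libraries plus a mean count of 50), testing without filtering, totals left unscaled, size factors of DESeq2 and, chosen after seeing the data, sex (from Xist and Ddx3y) as a covariate. Positions and lengths are from GENCODE M21 (GRCm38).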

Additional observations from a re-analysis of the deposited data

How the results depend on the processing

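The labels give the genotypes no shared mouse numbers, so mice could not be paired by label. Each genotype had 1 male and 1 female, so a fit with sex blocks the mice by sex-matched pair. Sex, read from Xist and Ddx3y, could be fitted as a covariate, with 1 residual degree of freedom, and gave 4323 called genes, 7 of the 10 genes, 23 other pathway genes and 13 B cell counterparts. With 1 library left in a genotype, its spread is taken from the other genotype. With a library left out, the number of called genes ranged from 1277 to 3229, of the 10 genes from 3 to 7, of other T cell receptor pathway genes from 11 to 18 and of B cell counterparts from 4 to 13. Of the 10 genes, 8 were called without a filter, 7 with DESeq2 and 7 at a false discovery rate of 0.1, against 4 in the report. For the other pathway genes the numbers were 22, 23 and 25, against 14. A fold threshold of 1.5 left 1457 called genes and 5 B cell counterparts. The causes were not tested beyond what fewer libraries or another threshold imply. Zap70 changed sign without KO mouse 51, ranging from -0.050 to 1.70 with a library left out. Plcg2, never called, ranged from -0.15 to 0.086. Over the alternatives, the adjusted p ranged from 3.34e-05 to 0.117 for Cd3g, from 0.00103 to 0.461 for Cd3d, from 0.000661 to 0.234 for Cd3e and from 0.00282 to 0.197 for Lck. Cd3e was absent from the stricter filter's test. The clustered Cd3 genes had 3 to 21 counts per WT library, which limits the precision of their WT levels.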

Other observations

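Some other T cell receptor pathway genes, chosen after their values were seen, also differed between the KO mice. Of the 41 tested, 8 had a log2 ratio of KO mouse 51 to KO mouse 63 over 1, against 6.23% of all genes tested, 33 were within 1 and the median was 0.03, against 1.13 over the 10 genes. The Tec kinase gene Txk had 19.1 and 1.96 CPM in KO, against 0.611 and 0.564 CPM in WT. Cd226, an activating receptor of NK and T cells, had 11.4 and 0.697 CPM in KO and 0.153 and 0.188 CPM in WT. The adaptor gene Skap1 had 23.8 and 3.65 CPM in KO and 1.35 and 1.54 CPM in WT, and the kinase gene Prkcq had 26.7 and 4.85 CPM in KO and 8.59 and 12.3 CPM in WT. In contrast, Fyb, an adaptor that binds the partner of LAT, had 441 and 603 CPM in KO and 61.7 and 19.4 CPM in WT. The costimulatory receptor gene Cd28 had 20.7 and 34.4 CPM in KO and 2.72 and 0.902 CPM in WT.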
